A study of Mus musculus with 346 samples.

Results

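Cholesterol is built from acetyl-CoA along a single chain of enzymes, and 7 genes of this chain and of its control are described here among 25139 genes analysed in single mouse mammary cells. The first 6 are enzymes, named here in the order in which they act: Hmgcs1, Idi1, Fdps, Fdft1, Sqle and Lss. The last, Insig1, encodes the endoplasmic reticulum protein that holds the sterol sensor Scap in place and so keeps the transcription factor SREBP from reaching the nucleus. The members were listed by name, with earlier results of these data known, and all 7 were found by Entrez number. On GRCm38.p6 they lie apart: Hmgcs1 at chr13:119690351-119708260, Idi1 at chr13:8885606-8892396, Fdps at chr3:89093588-89101967, Fdft1 at chr14:63145150-63181687, Sqle at chr15:59315092-59331193, Lss at chr10:76531565-76557139 and Insig1 at chr5:28071412-28078662.

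The study profiled total mammary epithelium of female FVB/NJ mice, an inbred strain, for which the labels name no treatment or engineered allele, at pre-puberty (2 weeks), puberty (4.7 to 4.9 weeks) and adulthood (10 weeks). Cells lacking the lineage markers Ter119, CD31 and CD45 were sorted and held 1 by 1 in the chambers of Fluidigm C1 chips, where polyadenylated RNA was turned into full-length cDNA. The series holds 144 pre-pubertal, 136 pubertal and 66 adult cells from 8 mice per stage by the series' own description, of which 116, 119 and 43 passed the coverage filter of at least 100000 read pairs and 1500 detected genes, with 109387 to 1189028 read pairs per kept cell (medians of 296587, 574690 and 334818 by stage). No label names the mouse or chip of a cell, so each stage counted as 1 sample, no test was made between stages, and differences between mice, chips and stages cannot be told apart. All intervals below are at 95%. Those of levels cover counting error only, and those of shares take cells as independent draws, so neither covers differences between mice or chips. Since molecules carried no identifiers, each of their amplified copies counted.

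Cells lower in sterol release SREBP from the endoplasmic reticulum, and SREBP then raises transcription of most synthesis genes, of sterol uptake and of Insig1 itself, which closes the feedback loop. The pathway also supplies the isoprenoids that anchor small G proteins to membranes. Cholesterol is a main lipid of myelin, the membrane wrapping that Schwann cells lay around axons, and myelinating cells make most of theirs on site.

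Most pre-pubertal cells had few reads of the marker genes of their epithelial label. A median of 0 of 14 epithelial genes was detected in a pre-pubertal cell after its counts were thinned, by random draw, to 100000 reads, against 9 in a pubertal and 7 in an adult cell. Of the 11 myelin genes listed, a median of 5 was detected in a pre-pubertal cell and of 1 in a cell of either later stage. Myelin genes together made 11339.7 counts per 1000000 reads (CPM) at pre-puberty, where single cells ranged from 609.5 to 74869 CPM with a median of 8206. They made 1356 CPM at puberty and 202 CPM in adults, with cell medians of 28.9 and 3.5 CPM. Pubertal cell 52 gave 78.9% of the pubertal myelin reads, and without it the level was 289 CPM. Gjb1 had no read at pre-puberty or in adults. Pmp22 was at 5022, 883 and 108 CPM at the 3 stages, Cnp at 1868, 109 and 58.4 CPM and Mbp at 1322, 143 and 24.3 CPM. Without the top cell of puberty, Pmp22 was at 127 CPM and Mbp at 15.8 CPM there. The genes Ncmap, Prx, Cldn19, Pllp and Mag were at 15.1 to 58.7 CPM at pre-puberty. Further Schwann cell genes (14 listed) summed to 12266, 242 and 920 CPM, and fibroblast genes (9 listed) to 7570, 1865 and 1364 CPM. Of the Schwann cell sums, Scn7a, which the study lists among its basal signature genes, gave 6222 CPM at pre-puberty and 604 CPM in adults. The fibroblast list was mixed, with 3 of 9 genes past 2-fold toward pre-puberty against puberty and 2 the other way. Of all genes at 10 CPM or more in either stage, 21.4% and 24.0% were past these limits. Among the 2 fibroblast genes toward puberty was Dcn, at 354, 842 and 870.4 CPM. Adipocyte and immune genes summed to 2.9 and 0.3 CPM at pre-puberty. Krt18, a luminal keratin, was at 72.5, 2487 and 1682 CPM, and Acta2, a basal actin, at 623, 1635 and 3495 CPM, with pre-pubertal levels of 7.46 and 315 CPM without the top cell of each gene. A median of 2 of 14 basal genes was detected both before and at puberty, against 7 in adults. Of these 14 genes, 3 were higher at pre-puberty than at puberty, Oxtr (205 and 81.5 CPM), Krt5 (65.7 and 46.1 CPM) and Mylk (382 and 278 CPM). Without the cell with the most Mylk reads at each stage, the log2 ratio of Mylk turned from 0.45 to -0.76. The same step left Oxtr at 1.07 and Krt5 at 0.36. The leading genes of the Schwann cell and fibroblast lists, Scn7a (6222, 94.3 and 604 CPM) and Col3a1 (5283, 528 and 269.7 CPM), were highest at pre-puberty, and Prlr (31.7, 2926 and 5121 CPM) and the casein gene Csn1s1 (0, 250.1 and 4284 CPM) in adults. All of these move with the stage comparisons of the sterol genes below, and their part in them was not tested.

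The upstream sequences of Hmgcs1 and Insig1 are shown because these were the members with the highest shares of pre-pubertal cells and the closest correlation with each other. RefSeq gave a promoter window for 4 of the 7 members, and the 250 bases before the annotated start are printed, 5′ to 3′. Capitals mark matches, on either strand, to CACCNCAC, which is a core of the sterol response element, to the CCAAT box and to the GC box GGGCGG. No match overlapped another.
Hmgcs1, chr13:119690101-119690350, GRCm38.p6, plus strand: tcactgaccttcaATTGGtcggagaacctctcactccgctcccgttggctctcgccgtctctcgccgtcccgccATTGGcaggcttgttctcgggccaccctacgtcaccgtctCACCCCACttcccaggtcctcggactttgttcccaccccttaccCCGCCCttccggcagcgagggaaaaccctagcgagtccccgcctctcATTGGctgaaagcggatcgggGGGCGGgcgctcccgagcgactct
Insig1, chr5:28071162-28071411, GRCm38.p6, plus strand: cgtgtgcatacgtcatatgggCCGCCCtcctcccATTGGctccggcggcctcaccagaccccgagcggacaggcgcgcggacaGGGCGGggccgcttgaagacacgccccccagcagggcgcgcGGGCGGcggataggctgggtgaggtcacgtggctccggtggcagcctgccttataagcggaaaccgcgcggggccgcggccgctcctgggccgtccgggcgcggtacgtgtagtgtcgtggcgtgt
The Hmgcs1 window held CACCCCAC once, 3 copies of ATTGG, which is CCAAT on the other strand, and 2 GC boxes. The Insig1 window held 1 copy of ATTGG and 3 GC boxes. Idi1 held 2 reverse CCAAT boxes and Lss 1. CACCNCAC occurred in 5.37% of 32851 windows of this length, CCAAT in 33.9% and GGGCGG in 32.7%, so the last 2 are common. A match describes letters in a window and is no evidence of a bound factor.

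Hmgcs1, the cytosolic synthase that makes HMG-CoA at the head of the pathway, was the member with the highest level at every stage, in CPM and per length. Its pre-pubertal level was 882 CPM (interval 872 to 891), its pubertal level 255 CPM (251 to 259) and its adult level 292 CPM (285 to 300.2). In pre-pubertal cells the lowest value was 0, the median 490.0 and the highest 5713 CPM. In pubertal cells the lowest was 0, the median 3.56 and the highest 7713 CPM, and in adult cells both the lowest and the median were 0 and the highest was 5414 CPM. The ranges of the 3 stages overlapped, and their medians differed. The summed level was 3.46-fold higher at pre-puberty than at puberty and 3.02-fold higher than in adults. Adult cell 36 alone gave 46.7% of the adult Hmgcs1 reads, and without it the adult level was 160 CPM, below the 228 CPM of puberty without its own top cell.

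Idi1, which isomerises the first isoprenoid unit, was low throughout, with stage levels of 17.7, 11.0 and 2.50 CPM. The median cell had no Idi1 read at any stage, and the highest cells reached 331, 167 and 55.2 CPM. Adult cell 58 held 95.7% of the adult reads of Idi1. After thinning, Idi1 was detected in 0 of 43 adult cells, which allows a share of up to 6.98% by 3 counts and of up to 8.22% by the exact interval. Without cell 58 the adult level was 0.11 CPM.

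Fdps, the synthase of farnesyl pyrophosphate at the branch point to isoprenoids, was at 7.35, 9.86 and 2.88 CPM at the 3 stages, under the 10 CPM that a gene had to reach in 1 stage of a pair to be counted. Its median cell was at 0 and its highest cells were at 188, 234 and 49.0 CPM. In adults 79.2% of its reads were those of cell 23, and the other cells were at 0.63 CPM. Fdft1, the squalene synthase that commits the chain to sterol, was at 31.7 CPM (30.0 to 33.5), 25.9 (24.7 to 27.2) and 31.0 (28.5 to 33.6). Its pre-pubertal and adult intervals overlapped. Adult cell 17 gave 53.9% of the adult Fdft1 reads, and without it the adult level was 14.6 CPM.

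Sqle, the squalene epoxidase that is a rate-limiting step of sterol synthesis, had a level of 155.2 CPM in pre-pubertal cells (interval 151.4 to 159), 100.4 CPM in pubertal cells (98.0 to 103) and 12.9 CPM in adult cells (11.3 to 14.7). The median cell was at 0 at each stage, and the highest cells were at 1907, 1965 and 335 CPM. Sqle was read in a minority of cells at all stages. Its summed level was 12.0-fold higher at pre-puberty than in adults, while the shares of cells had overlapping intervals. In adults 45.0% of its reads were those of cell 17, and the other cells were at 7.25 CPM.

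Lss, the cyclase that closes the sterol ring, was read in few cells. Its stage levels were 15.4, 11.8 and 65.0 CPM, and any read of it was found in 10, 5 and 6 cells. Pre-pubertal cell 4 gave 64.2%, pubertal cell 3 gave 97.5% and adult cell 28 gave 85.2% of the stage's reads. Without these cells the levels were 5.63, 0.29 and 10.0 CPM, in the same order, so most of the Lss reads of each stage came from 1 cell.

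Insig1, the feedback protein, had a pre-pubertal level of 94.2 CPM (91.2 to 97.2), a pubertal level of 28.7 CPM (27.4 to 29.9) and an adult level of 8.32 CPM (7.05 to 9.75). The lowest pre-pubertal cell was at 0, the median at 21.1 and the highest at 2444 CPM. The median pubertal and adult cells had no read, and the highest were at 367 and 160 CPM. Insig1 was 3.29-fold higher at pre-puberty than at puberty and 11.3-fold higher than in adults. Most adult reads, 83.7%, came from adult cell 58, and leaving it out put the adult level at 1.42 CPM.

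**Figure D1:**
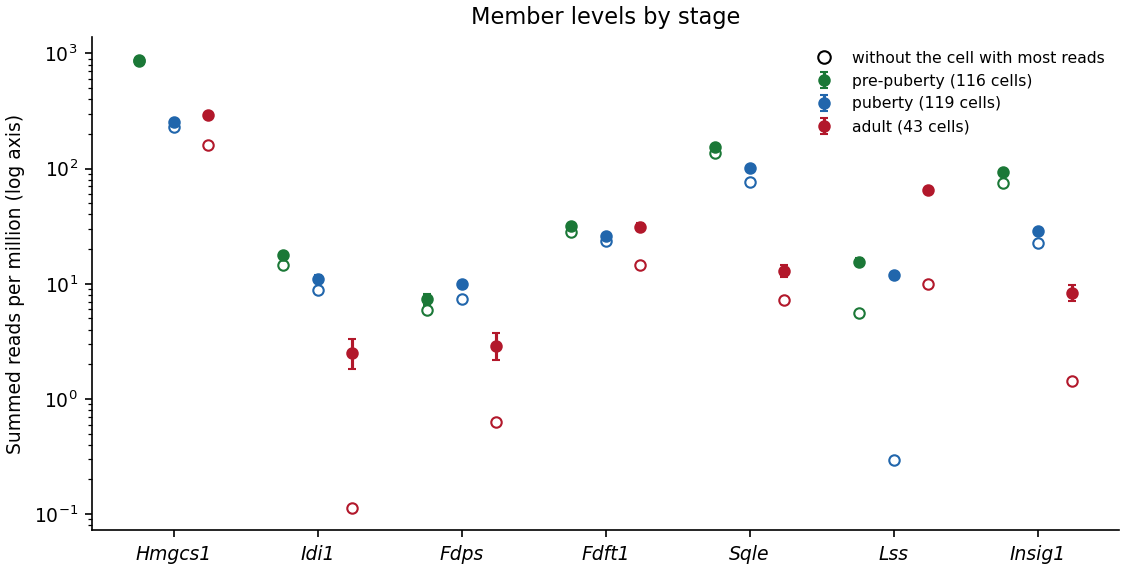
Summed level of each member by stage, in CPM on a log axis. Filled points are all kept cells with the 95% Poisson interval, which is often smaller than the point, and open points leave out the cell with the most reads of that gene. Hmgcs1, Idi1, Sqle and Insig1 were highest at pre-puberty with or without that cell. So was Fdft1, whose pre-pubertal and adult intervals overlapped with all kept cells in. Lss changed most when that cell was left out.

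**Figure D2:**
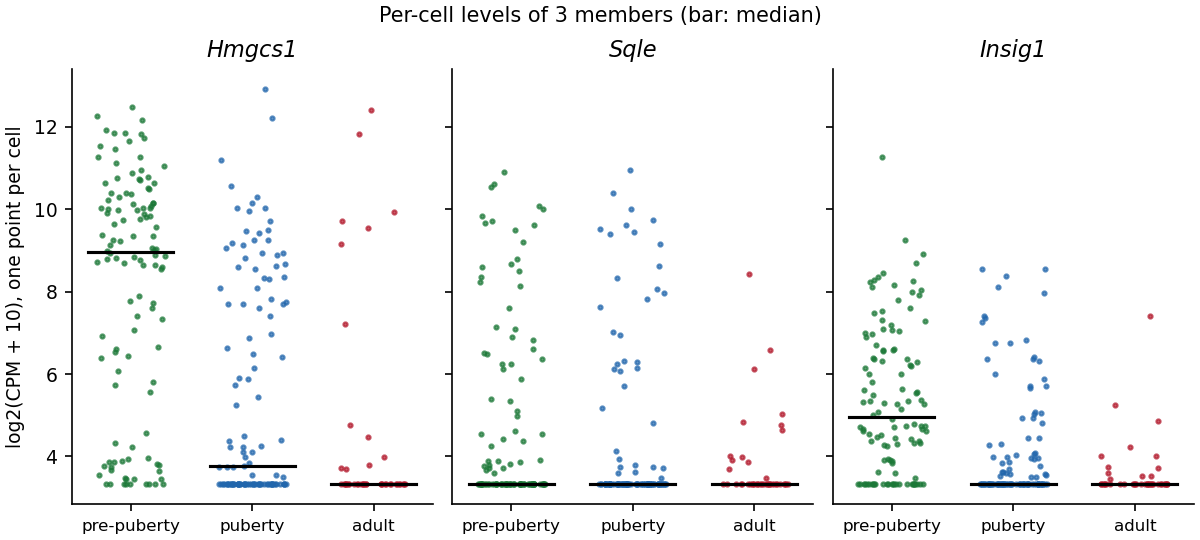
Level of Hmgcs1, Sqle and Insig1 in each kept cell, as log2 of CPM plus 10, with the median as a bar. Most pre-pubertal cells carried Hmgcs1 and Insig1, and the median adult cell carried neither.

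Per length the members kept a wide spread. RPKM, reads per 1000 bases of gene length per 1000000 reads, was computed from the counts and the authors' deposited gene length. At pre-puberty Hmgcs1 was at 269 RPKM, Sqle at 56.5, Insig1 at 35.6, Fdft1 at 11.1, Idi1 at 6.18, Fdps at 5.03 and Lss at 4.96. The intervals of the last 2 overlapped (4.47 to 5.63 and 4.58 to 5.36), and those of the other neighbours did not. At puberty the order was Hmgcs1 (77.6), Sqle (36.5), Insig1 (10.8), Fdft1 (9.06), Fdps (6.75), Idi1 (3.84) and Lss (3.81), the last 2 with overlapping intervals. In adults Hmgcs1 was at 89.0 RPKM and Lss at 21.0, ahead of Fdft1 at 10.8, Sqle at 4.71, Insig1 at 3.14, Fdps at 1.97 and Idi1 at 0.87, and no neighbours in this order had overlapping counting intervals. The adult order of Lss and Fdft1 turned when the top cell of each gene was left out, an alternative added after the data were seen, with Fdft1 at 5.08 RPKM and Lss at 3.24.

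The share of cells with a read does not depend on how high 1 cell goes. The median number of all genes detected per thinned cell was 2859, 2696 and 2156 by stage, and its part in the shares was not tested. After thinning to 100000 reads, 80.2% of the pre-pubertal cells had an Hmgcs1 read (71.7 to 87.0), as did 47.1% of those at puberty (37.8 to 56.4) and 23.3% of the adult ones (11.8 to 38.6). Insig1 was found in 69.8% (60.6 to 78.0), 32.8% (24.4 to 42.0) and 11.6% (3.89 to 25.1). For both genes the pre-pubertal interval lay above both others, which describes cells of 1 sample per stage and not mice. Fdft1 was detected in 24.1%, 29.4% and 20.9% of cells, with overlapping intervals, as were those of Sqle, Fdps and Lss at the 3 stages. For Idi1 the pre-pubertal share of 25.0% (17.4 to 33.9) overlapped the pubertal share of 18.5% (12.0 to 26.6). Before thinning, the Hmgcs1 shares were 92.2%, 55.5% and 30.2% and the Insig1 shares 76.7%, 42.9% and 27.9%.

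**Figure D3:**
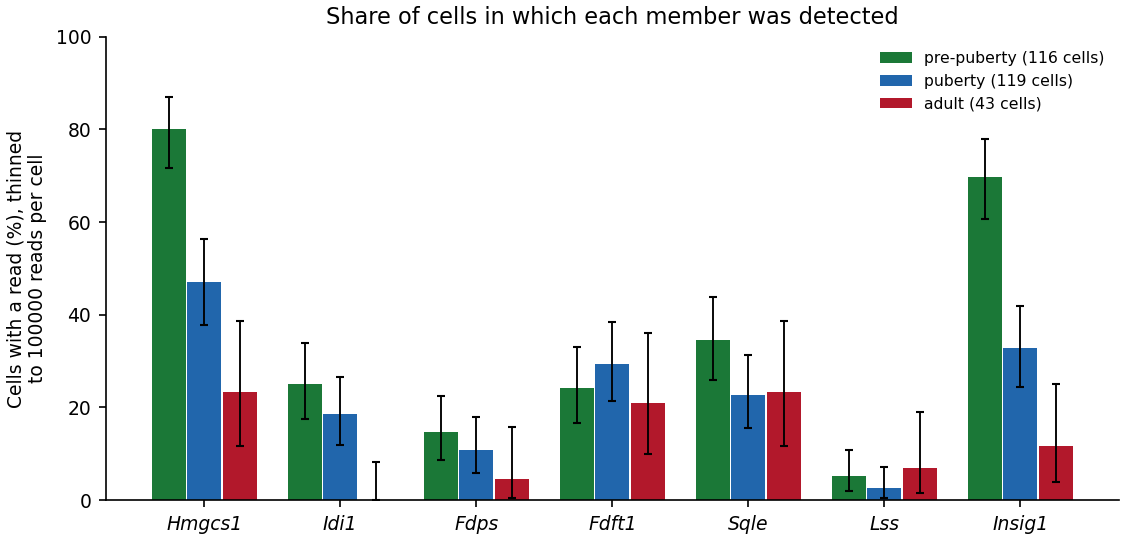
Percent of kept cells with at least 1 read of each member after thinning every cell to 100000 reads, with exact 95% binomial intervals. Hmgcs1 (80.2%) and Insig1 (69.8%) stand out at pre-puberty, and no adult cell kept an Idi1 read.

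Counted over the 7 members, a median of 3 was detected in a pre-pubertal thinned cell, against 1 in a pubertal and 1 in an adult cell. Over all genes, the medians per thinned cell were 2859, 2696 and 2156 at the 3 stages. At least 4 members were detected together in 26 of 116 cells before puberty (22.4%, 15.2 to 31.1), in 9 of 119 cells at puberty (7.56%, 3.52 to 13.9) and in 1 of 43 adult cells (2.33%, 0.059 to 12.3). None of the 7 was detected in 8 pre-pubertal, 25 pubertal and 16 adult cells. Together the members made 1203, 442 and 415 CPM at the 3 stages, of which Hmgcs1 was 73.3%, 57.6% and 70.4%. The sum was 2.72-fold higher at pre-puberty than at puberty and 2.90-fold higher than in adults, and leaving out the cell with the most member reads of each stage made these 2.77-fold and 4.04-fold. Adult cell 36 gave 32.9% of all adult member reads. The log2 ratio of puberty over adult was 0.09, and its sign turned under 3 of the alternative settings. With Hmgcs1 left out of the sum, an alternative added after the data were seen, the log2 ratio of pre-puberty over puberty was 0.76 in place of 1.43.

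Taken 1 by 1, on log2 ratios after adding 5 CPM, 2 of the 6 members that reached 10 CPM were past 2-fold toward pre-puberty against puberty, Hmgcs1 (1.77) and Insig1 (1.56), and none toward puberty. Over all 9866 genes at this level, 21.4% were past 2-fold toward pre-puberty and 24.0% toward puberty, so a count of 2 of 6 (33.3%) is close to what genes in general gave. Sqle was at 0.60, Idi1 at 0.50, Lss at 0.28 and Fdft1 at 0.25. Against adults, Sqle (3.16), Insig1 (2.90), Idi1 (1.60) and Hmgcs1 (1.58) were past 2-fold toward pre-puberty, which is 4 of 6 beside 31.8% of 9743 genes. Lss, at -1.78, was past it toward adults, beside 28.7% of genes. It was at -0.50 with the cell with the most Lss reads of each stage left out. Between puberty and adults, Sqle (2.55), Insig1 (1.34) and Idi1 (1.09) were past 2-fold toward puberty, beside 28.5% of 9449 genes, and Lss (-2.06) toward adults, beside 20.5%. The median log2 ratio of the members was 0.55, 1.59 and 0.45 for the 3 pairs in this order, and that of all genes -0.12, 0.04 and 0.11. Comparisons that share a stage share its cells and are not independent of each other.

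Of the other 15 synthesis genes listed, 13 reached 10 CPM in either of these pairs. Against puberty 5 of the 13 were past 2-fold toward pre-puberty and none toward puberty, and against adults 7 of 13 and none, beside the 21.4% and 31.8% of all genes that were past it toward pre-puberty. Msmo1, a sterol C4 demethylation enzyme, was at 305, 63.4 and 29.5 CPM at the 3 stages, and Pmvk, a mevalonate pathway kinase, at 129.6, 26.0 and 12.7 CPM. Nsdhl, which acts beside Msmo1, was at 78.2, 35.4 and 26.5 CPM. Lbr, a sterol reductase and lamin receptor, was at 973, 916 and 363 CPM. Sc5d, the lathosterol oxidase, was highest at puberty, at 367, 523 and 238 CPM. Without the top adult cell of each gene, the adult levels of Msmo1, Pmvk and Nsdhl were 8.41, 5.26 and 13.3 CPM.

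Of the 8 genes that control SREBP other than Insig1, none was past 2-fold toward pre-puberty against puberty and 2 were past it the other way, and against adults the count was 4 of 8 each way, beside 21.4% and 24.0% of all genes in the first pair and 31.8% and 28.7% in the second. Scap, the sterol sensor that escorts SREBP, was at 28.1, 26.7 and 119 CPM at the 3 stages, and Insig2, the paralog of Insig1, at 64.7, 101 and 141 CPM, the reverse order of Insig1. Mbtps1, the site-1 protease that releases SREBP, was at 124, 92.4 and 24.2 CPM. Ufd1 and the ubiquitin ligase gene Rnf139, which take part in degrading proteins of the endoplasmic reticulum, were at 47.9, 130 and 229 CPM and at 104, 77.6 and 47.9 CPM. The transcription factor gene itself, Srebf2, was at 28.7, 12.3 and 8.59 CPM. Without the cell with the most reads of each gene at each stage, Scap was at 22.6, 19.0 and 60.0 CPM and Ufd1 at 30.6, 119 and 142 CPM. Srebf2 was then at 17.3, 9.52 and 4.10 CPM and Rnf139 at 52.3, 57.9 and 27.6 CPM, the last with its first 2 stages in the other order.

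Among the 10 genes of sterol uptake and transport, 2 of 8 were past 2-fold toward pre-puberty against puberty and 4 of 8 against adults, and none the other way. The first is near the 21.4% of all genes, and the second stands beside 31.8%. Stard3 and Npc1, which take part in cholesterol transport at late endosomes, were at 84.2, 27.8 and 1.03 CPM and at 76.3, 44.5 and 34.0 CPM. A single adult cell gave 87.2% of the adult Npc1 reads, and without it Npc1 was at 4.55 CPM. Of 8 genes of efflux and storage, 2 of 6 were past 2-fold toward pre-puberty and 1 toward puberty, and against adults 2 each way (33.3%), which is near the shares of all genes. Apoe, the apolipoprotein that carries lipid between cells, was at 1406, 396 and 461 CPM and was detected in 98.3% of pre-pubertal thinned cells. Soat1, which esterifies cholesterol for storage, was at 171, 101 and 27.1 CPM, and Lipa, the lysosomal lipase, at 184, 28.6 and 163 CPM. Abcg1, a sterol exporter, was the reverse, at 6.46, 203 and 268 CPM. Without the cell with the most Abcg1 reads of each stage it was at 0.17, 169 and 104.8 CPM. Without its top adult cell Soat1 was at 15.7 CPM.

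Of 7 isoprenoid branch genes, 0 of 6 were past 2-fold toward pre-puberty against puberty and 1 of 6 against adults. In each pair 1 was past it the other way. Of all genes, 21.4% were past it toward pre-puberty and 24.0% toward puberty, and 31.8% and 28.7% in the adult pair. The 1 isoprenoid gene past it toward pre-puberty against adults was Fnta, a prenyl transferase subunit (169.7, 145.6 and 11.6 CPM). Of 11 fatty acid synthesis genes, 4 of 9 were past 2-fold toward pre-puberty and 1 toward puberty, beside 21.4% and 24.0% of all genes. Against adults 3 of 9 were past it each way, near the 31.8% and 28.7% of all genes. Scd2, a stearoyl-CoA desaturase of nerve and developing tissue, was at 265, 46.7 and 29.1 CPM, and Fasn, the fatty acid synthase, at 127, 7.56 and 65.6 CPM. Elovl5 (202, 70.7 and 18.4 CPM) and Elovl6 (58.7, 41.0 and 10.9 CPM), which lengthen fatty acids, were highest at pre-puberty. Scd1 was at 94.7, 140 and 284 CPM, Me1 at 18.2, 47.6 and 67.8 CPM, Acly at 51.0, 94.2 and 43.5 CPM and Fads1 at 147.1, 61.4 and 144 CPM. Without the top adult cell of each gene, the adult levels were 22.3 CPM for Fasn, 15.8 for Scd2, 11.2 for Elovl5, 3.78 for Elovl6, 18.1 for Me1 (below the pubertal level), 28.4 for Acly and 80.1 for Fads1.

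Across cells the members were loosely correlated. In pre-pubertal cells, Spearman's rho over the 21 pairs, on log2 of thinned CPM plus 10, averaged 0.12 (range -0.09 to 0.40, n = 116), beside a mean of 0.02 over all pairs of 8263 genes at 10 CPM. In pubertal cells the mean was 0.09 (n = 119), beside 0.03 for 8378 genes, and in adult cells 0.02 over the 15 pairs with reads (n = 43), beside 0.02. The closest pair was Hmgcs1 and Insig1, the head of the pathway and its feedback protein, with a rho of 0.40 at pre-puberty and 0.35 at puberty. Both were detected in 69 pre-pubertal cells, 27 pubertal cells and 2 adult cells. Hmgcs1 and Idi1 followed, at 0.31 and 0.33. Pairs with Lss were between -0.09 and 0.09 at pre-puberty. Cells of a stage share library preparation, a range of depths and the zeros of sparse counts, so these values are given as descriptions, with no test, and the weak ones are no finding.

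**Figure D4:**
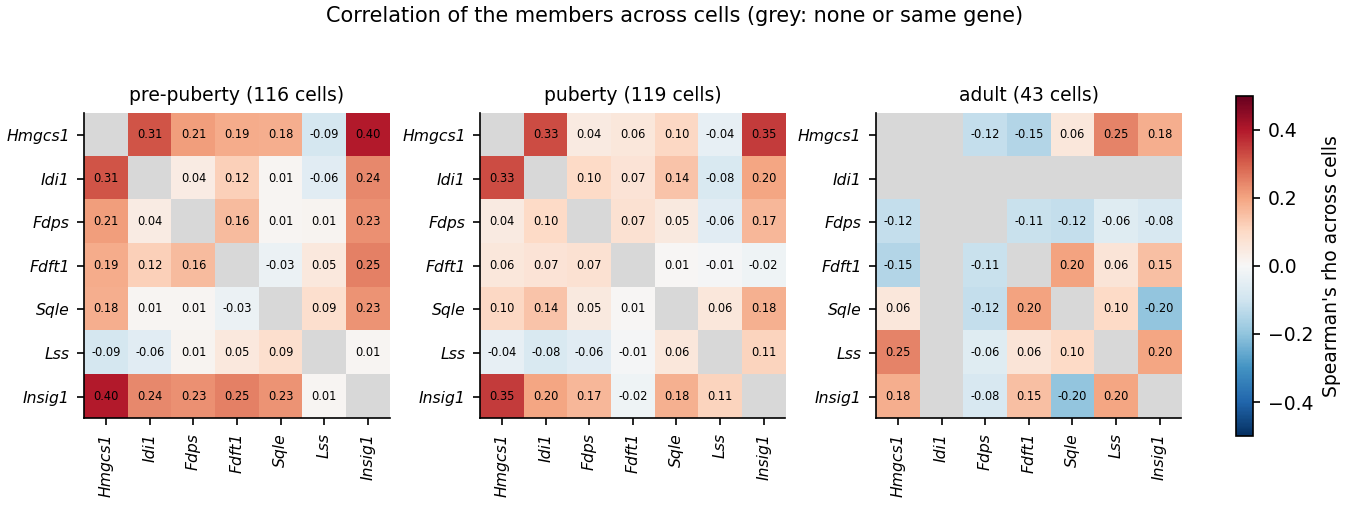
Spearman's rho of each pair of members across kept cells of each stage, on log2 of thinned CPM plus 10. The pair of Hmgcs1 and Insig1 is the closest at pre-puberty (0.40) and at puberty (0.35), and Idi1 had no read left in adult cells after thinning.

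The mean of the 7 log values in a cell, called the sterol score here, had a pre-pubertal median of 4.74 (range 3.32 to 7.36), a pubertal median of 3.97 (3.32 to 6.49) and an adult median of 3.46 (3.32 to 5.37), where 3.32 is a cell with no read of any member. It followed the same score over the 15 other synthesis genes, with rho values of 0.60, 0.54 and 0.42 at the 3 stages. It was little related to read number (0.06, 0.08 and 0.17). With the number of genes detected it was related at puberty and in adults (0.46 and 0.44) more than at pre-puberty (0.11). At puberty and in adults it also ran with the score of 12 cell cycle genes (0.41 and 0.36), and not so at pre-puberty (-0.05).

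At pre-puberty the sterol score ran with the myelin score, the mean over the 11 myelin genes, with a rho of 0.51 (n = 116). At puberty this rho was 0.01 and in adults 0.07, where a median of 1 myelin gene was detected. The myelin score itself was little related to reads (0.03) or genes per pre-pubertal cell (-0.07). The score of the other 14 Schwann cell genes had a rho of -0.17 with the sterol score, and those of basal, luminal and fibroblast genes had -0.09, 0.00 and -0.04. The relation was 0.46 in the 104 kept cells numbered 38 and up and 0.80 in the 12 of the first 37 cells that passed the filter. These 12 cells had a median of 936962 reads, against 283456 in the other 104, and over all cells, before the filter, the medians were 21009 and 278844. The labels give no run or chip for either set, and the part of depth in this difference was not tested. It was 0.49 in the 97 cells without keratin above 40 RPKM and 0.39 without Hmgcs1, the last being added after the data were seen. Member by member, it was 0.49 for Hmgcs1, 0.37 for Insig1, 0.30 for Idi1, 0.21 for Fdft1, 0.09 for Sqle, 0.08 for Fdps and -0.02 for Lss. The 15 other synthesis genes had a rho of 0.34 with the myelin score. All of these scores were taken from the same libraries.

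**Figure D5:**
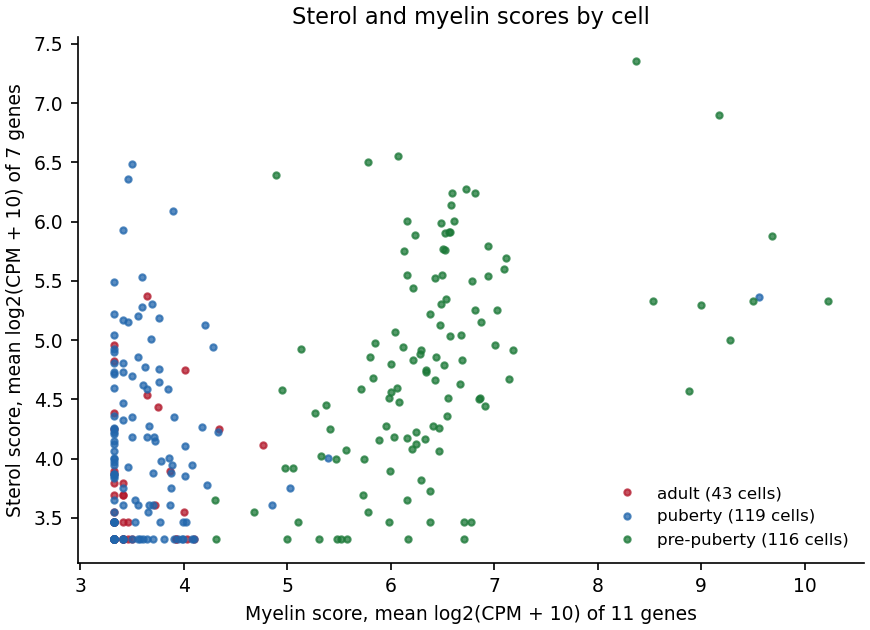
Sterol score against myelin score in each kept cell, both as a mean of log2 of thinned CPM plus 10. Pre-pubertal cells spread from 4.30 to 10.2 on the myelin axis, with higher sterol scores toward the right, and 1 pubertal cell lies among the 9 pre-pubertal cells above 8.

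In 9 pre-pubertal cells the values stood apart with a myelin score above 8, the next cell being at 7.18, and this limit was set after the values were seen. Their sterol scores ran from 4.57 to 7.36 with a median of 5.33, and 8 of the 9 were above the stage median. Their summed member level ran from 440 to 5820 CPM with a median of 1558, against a median of 643 in the other 107 cells. Without them the rho of the scores was 0.46. Pre-pubertal cell 72, with the highest myelin score, held Hmgcs1 at 5713 CPM, the stage's highest value, and its sterol score was the 32nd of 116. At puberty a single cell, number 52, was of this kind, with a myelin score of 9.56 and 136330 CPM of myelin reads. Its sterol score of 5.37 was the seventh of 119, against a stage median of 3.97, with Hmgcs1 at 385, Insig1 at 322 and Fdps at 234 CPM.

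Pre-pubertal cells were also ranked by myelin score and divided into 3 ranges, which are no cell types. The lowest 39 cells scored 4.30 to 6.07, the middle 39 scored 6.08 to 6.54 and the highest 38 scored 6.55 to 10.2, and 36 cells lay within 0.1 of a limit. Hmgcs1 was at 331 CPM in the lowest, 987 in the middle and 1380 in the highest range, with cell medians of 57.8, 460.0 and 875 CPM. The shares of thinned cells with a read were 59.0% (42.1 to 74.4), 92.3% (79.1 to 98.4) and 89.5% (75.2 to 97.1). Insig1 was at 32.1, 77.2 and 178 CPM, the last being 120 without its top cell, and was detected in 53.8%, 69.2% and 86.8% of cells. Idi1 was at 6.60, 21.2 and 26.4 CPM and Fdft1 at 14.4, 24.3 and 57.8 CPM. Sqle was at 56.1, 194 and 226 CPM, while its share of cells, 30.8%, 33.3% and 39.5%, had overlapping intervals. Lss was detected in 2 cells of each range or 5.13% to 5.26% of them. Msmo1 (60.3, 334 and 543 CPM) and Sc5d (202, 345 and 568 CPM) were highest in the highest range too. Median reads were 287136, 280097 and 316615 per cell and median genes per thinned cell 2897, 3159 and 2744.

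The 10 genes closest to the sterol score were listed for each stage, from genes that reached 50 CPM and had a read in 50% of its thinned cells. At pre-puberty, among 1666 such genes with a median rho of 0.03, they included Sc5d (0.49), Npr3 (0.47), Pmp22 (0.42), Usp53 (0.40), Sdc4 (0.40), Mbp (0.34), Mal (0.33) and Paip2 (0.31). Sc5d is on the synthesis list, and Pmp22 and Mbp are on the myelin list. At puberty, among 1492 genes with a median of 0.11, they were Nasp, Snrpb, Stmn1, Aprt, Anxa6, Hmgb1, Gm8203, Banf1, Pbrm1 and Kif2a (0.43 to 0.39). In adults, over 43 cells and 1087 genes with a median of 0.09, they were Cul5, Jpt1, Mphosph8, Copa, Ewsr1, Ran, Bclaf1, Mcmbp, Pdia3 and Jag1 (0.52 to 0.44), and no gene was named at more than 1 stage.

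Split by keratins at 40 RPKM, the pre-pubertal cells were 97 with none of Krt14, Krt8 and Krt18, 10 with Krt14 alone, 7 with both kinds and 2 with Krt8 or Krt18 alone. The summed member level of the median cell was 749, 441, 656 and 38.8 CPM in these classes. Hmgcs1 was detected in 80.4% of the cells without keratin (71.1 to 87.8), 80.0% of those with Krt14 alone (44.4 to 97.5), 7 of 7 with both (59.0 to 100) and 0 of the 2 with Krt8 or Krt18 alone. At puberty, 80 of 119 cells had Krt8 or Krt18 alone, and Hmgcs1 was detected in 42.5% of them (31.5 to 54.1), in 54.2% of the 24 with both (32.8 to 74.4), in 80.0% of the 5 with Krt14 alone (28.4 to 99.5) and in 50.0% of the 10 with none (18.7 to 81.3). All these pubertal intervals overlapped. Within every keratin class the Hmgcs1 intervals of these 2 stages overlapped too. The interval of the 2 pre-pubertal cells with Krt8 or Krt18 alone was 0 to 84.2. The median keratin-free cell was at 504 CPM of Hmgcs1 before puberty and at 4.38 CPM at puberty. No test was made within classes. Sqle at puberty was at 144.98 CPM in cells with Krt8 or Krt18 alone, 20.9 with both and 0 in the 10 cells with none. In adults, 22 cells had Krt8 or Krt18 alone, with Hmgcs1 at 49.3 CPM, or 10.8 without the top cell, and 13 had both, with Hmgcs1 at 446 CPM, or 311 without the top cell. Of the 3 keratin-free adult cells, 1 held all Hmgcs1 reads, and their summed level was 2509.6 CPM with it and 0 without it.

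Some members share sequence with other annotated genes, and since neither the counting of shared read pairs nor of strand was stated, their values carry that uncertainty. Exons of Hmgcs1 (12.1% of bases) and Lss (3.53%) are overlapped by antisense genes, Idi1 (9.22%) by a transcript on the other strand, Fdft1 (18.3%) by Ctsb on the other strand and Fdps (26.7%) by another gene on its own strand. Ctsb, a cathepsin, lies next to Fdft1 in the opposite direction. These overlaps are of GENCODE exons, while reads were counted on RefSeq gene models. The deposited length of Fdft1 was 2863 bases, against 4227 exon bases in GENCODE. Whether the shared bases were counted was not checked. Transcripts of 3 other genes matched Idi1 over 22.4% to 22.6% of its length, 6 matched Fdps over 4.84% to 9.69% and 1 matched Fdft1 over 33.8%, at up to 100% identity. Sqle and Insig1 had no overlapping gene, and their matches elsewhere covered at most 7.01% of the transcript.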

How the data were processed

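The deposited values are counts: whole numbers of read pairs per Entrez gene for each cell, not normalised. Per the labels and the study's methods, the authors mapped read pairs to mm10 with Subread (version 1.4.6 in the submitters' processing notes) and assigned them to genes by featureCounts, using the RefSeq annotation that Rsubread carries. The gene length is the authors' deposited value. A table of the whole series held the same counts and was not used.

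Of 27179 genes, 25275 matched RefSeq (GRCm38.p6) on the Entrez number. Genes with no match (1904), 15 mitochondrial and 121 ribosomal protein genes were removed, as in the study, and its coverage filter was used. No 2 cells were identical, and no doublet caller was run because the wells had been inspected.

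Summed reads per stage were expressed as CPM with exact Poisson intervals, and shares of cells with exact Clopper-Pearson intervals. Log2 ratios had 5 CPM added, which understates changes of low genes, and genes at 10 CPM or more in either stage formed the background. Cells were thinned once to 100000 reads for shares, scores and correlations, which used log2(CPM + 10). Depth per kept cell was 109387 to 1189028 reads. Alternatives changed the scaling, filters, depth, added constant, thinning, cells, genes and myelin list. The code was tested on simulated data.

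The members and gene lists were chosen with earlier results of these data known. Genes of the 7 related pathway lists were named when past 2-fold for any pair at 50 CPM or more, together with the 10 genes per stage closest to the sterol score, the myelin genes and the leading gene of each marker list (for the remaining lists Cfd, at most 1.67 CPM, Esam at 16.8, 16.0 and 65.1 CPM by stage, Fcer1g at 0, 0 and 74.1, Top2a at 245, 378 and 48.0 and Fos at 4737, 1236 and 4073). Some genes that this rule names, and the ketone branch list, are not reported here. Srebf2 and single cells were named after their values were seen. Copies were sought with BLAST at 90% identity over 100 bases in GENCODE transcripts. Python 3.11.15, NumPy 2.4.6, SciPy 1.17.1, pandas 2.3.3, R 4.3.3, edgeR 4.0.16 and DESeq2 1.42.0 (the last 2 for scaling factors only, with no test) were used.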

Additional observations from a re-analysis of the deposited data

Results flagged for a closer look

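The cells below the coverage filter, which no comparison above used, also held reads of the 7 members above the limit that a count of 0 allows. In the 28 pre-pubertal cells left out, the summed member level was 1076 CPM (interval 990.0 to 1168), against a limit of 5.64 CPM for 3 reads, and 19 of the cells held a read. In the 17 pubertal cells left out it was 233 CPM (199 to 270), with 9 cells holding a read and none of Hmgcs1. In the 23 adult cells left out it was 287 CPM (250 to 329), of which 1 cell gave 96.2% of the reads, and it was 18.3 CPM without that cell. Pre-pubertal cells were thus highest below the filter too, with 739 CPM without their top cell against 123 CPM in pubertal cells without theirs.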

How the results depend on the processing

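The log2 ratio of the summed members for pre-puberty over puberty, 1.43, was 1.37 with equal weight for each cell, 1.48 with at least 200000 reads and 2000 genes, 1.51 with TMM factors, 1.61 with DESeq2 size factors, 1.57 with all genes counted, 1.65 in cells with 200000 to 600000 reads and 1.55 with pre-pubertal cells 38 and up. For pre-puberty over adult, 1.52 as reported, the same settings gave 1.63, 1.45, 1.60 with TMM, 1.68 with all genes, 1.35 in the depth window and 1.64 with cells 38 and up. It was 2.00 without the top cell of each stage, here the cell with the most reads of all members. Without Hmgcs1, an alternative chosen after seeing the data, the 2 ratios were 0.76 and 1.36. The ratio of puberty over adult, 0.09, was 0.26 with equal weight, 0.54 without the top cells and 0.59 without Hmgcs1, and it turned to -0.037 with the stricter filter, -0.12 with DESeq2 factors and -0.30 in the depth window. In that window 4 members in place of 2 were past 2-fold between pre-puberty and puberty, 3 toward pre-puberty and Lss toward puberty (-1.36, from 0.28). The share of all genes past 2-fold in either direction rose as well, to 51.8% from 45.4%. Between puberty and adults Lss turned from -2.06 to 0.37 in the window. The correlation of the sterol and myelin scores, 0.51, was 0.80 in the 12 kept cells numbered 1 to 37. The cause of these moves was not tested. Of the alternative values for the summed levels, counts and correlations, 59 stayed within their intervals or limits, 21 moved and 3 turned sign, all given here. Of those for single members, 214 stayed, 30 moved and 1 turned sign past its limit, and of the 30 that moved Lss between pre-puberty and puberty also changed sign. No paired analysis was possible because the labels give cells a number within a stage only, which pairs no cells across stages, and no test was made. Counts of reads limit Idi1, Fdps and Lss most, with few cells holding any read.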
